A study of Mus musculus with 4 samples.

Results

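The genes described here are 8 Paneth cell genes other than the alpha-defensins: Lyz1, Ang4, Mmp7, Itln1, Pla2g2a, Cd24a, Habp2 and Mptx2. They were found by gene name among the 28632 genes on an Agilent whole mouse genome array, where 7 of the 8 had a probe and 8 probes were present in all. Mptx2 was not matched by name, and it is not analysed here. Small intestinal organoids of 2 mice, grown for 1 week, were set against freshly isolated crypts of the same 2 mice. For the organoids, 500 crypts were plated in 50 µl of Matrigel, in medium with Noggin (100 ng/ml), R-spondin (500 ng/ml) and EGF (10 to 50 ng/ml). For the crypts, tissue was released in 2 mM EDTA and passed through a 70 µm strainer, and the labels name no sorting of cells for either preparation. Both groups came from the same starting crypts, and the labels give no strain, genotype, age or sex for the mice. Organoid and crypt RNA of a mouse were hybridised together on an array and again with the dyes swapped, so 4 arrays gave n = 2 mice. The 2 arrays of a mouse are technical repeats, and 2 mice limit the precision of every value.

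Paneth cells are granular secretory cells that sit between the stem cells at the crypt base. Their granules carry antimicrobial proteins into the crypt lumen, among them lysozyme, secreted phospholipase A2, angiogenin 4 and the defensins, and their surface and secreted ligands feed the neighbouring stem cells. Wnt signalling drives their maturation, and R-spondin in the medium strengthens that signal.

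The members are read here through single 60-base probes, and 7 probe sequences are shown: those of Ang4 and Itln1 because another probe shares a run of bases with them, and those of Mmp7 and Pla2g2a, which have 1 probe each, because results below rest on these sequences alone. Sequences and positions are those of the array's own annotation, with positions in mm9. The annotated interval spans 40 bases for the dimmer Ang4 probe, 42 for Ang6, 59 for Itln1 and 1116 for ENSMUST00000043170. These intervals do not match the 60-base length of the probes. Capitals mark the longest run that a pair of probes has in common: 18 bases between the dimmer Ang4 probe and the Ang6 probe, and 11 bases between the Itln1 probe and a probe for the transcript ENSMUST00000043170. Probes wholly in lower case have no run marked.
Ang4, dimmer probe (chr14:52383541-52383580, minus strand): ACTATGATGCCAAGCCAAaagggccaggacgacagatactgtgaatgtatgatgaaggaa
Ang6 (chr14:44579807-44579848, minus strand): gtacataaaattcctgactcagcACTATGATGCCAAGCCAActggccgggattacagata
Ang4, brighter probe (chr14:52384066-52384125, minus strand): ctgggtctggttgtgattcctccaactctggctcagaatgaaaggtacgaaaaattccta
Itln1 (chr1:173460678-173460736, minus strand): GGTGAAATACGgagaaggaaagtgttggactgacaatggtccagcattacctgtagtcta
ENSMUST00000043170 (chr1:173445843-173446958, plus strand): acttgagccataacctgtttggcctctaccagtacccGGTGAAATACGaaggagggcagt
Mmp7 (chr9:7697641-7697700, plus strand): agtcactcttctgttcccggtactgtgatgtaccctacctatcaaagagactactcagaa
Pla2g2a (chr4:138390766-138390825, plus strand): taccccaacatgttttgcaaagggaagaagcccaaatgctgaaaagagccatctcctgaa

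The share of probes well above background ran from 51.4% to 61.6% in organoid channels and from 53.7% to 67.0% in crypt channels. Across genes, which are not independent replicates, the organoid-over-crypt ratios on both arrays of mouse 1 had r = 0.837, and those on both arrays of mouse 2 had r = 0.850. Of 15534 genes tested with limma's moderated test of the 2 mouse means against 0, 1703 had a Benjamini-Hochberg adjusted p under 0.05, which is called passing the test here. That is 11.0% of genes, with 5.49% lower and 5.47% higher in organoids. Genes at least 2-fold lower in organoids in both mice made up 2.30%, and genes lower on all 4 arrays 21.7%. Unless a level or a signal is named, values below are log2 ratios (organoid over crypt), each with its SD over the 2 mouse means.

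Of the 7 measured Paneth cell genes, 5 (Lyz1, Ang4, Itln1, Pla2g2a and Mmp7) fell in organoids, where 5.49% of all genes did, and 0 rose by limma, also at an unadjusted p under 0.05. Their ratios ran from -2.92 for Lyz1 to -1.65 for Mmp7, or 7.55-fold to 3.14-fold lower. These 5 genes were at least 2-fold lower in both mice, and 6 of the 7 were lower on all 4 arrays. Habp2 (-0.40 ± 0.14) and Cd24a (0.43 ± 0.36) did not pass. The median of the 7 genes was -1.74, against 0.02 over all genes tested. In RNA of whole crypts and organoids, fewer Paneth cells and less RNA per Paneth cell cannot be told apart. When arrays were centred on their medians instead of normalised by loess, Lyz1 and Ang4 still passed and the other 3 did not, although all 5 genes remained at least 2-fold lower in both mice. Without the filter on dim probes, Ang4 (adjusted p = 0.0960, limma) and Itln1 (adjusted p = 0.0586, limma) did not pass.

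**Figure D1:**
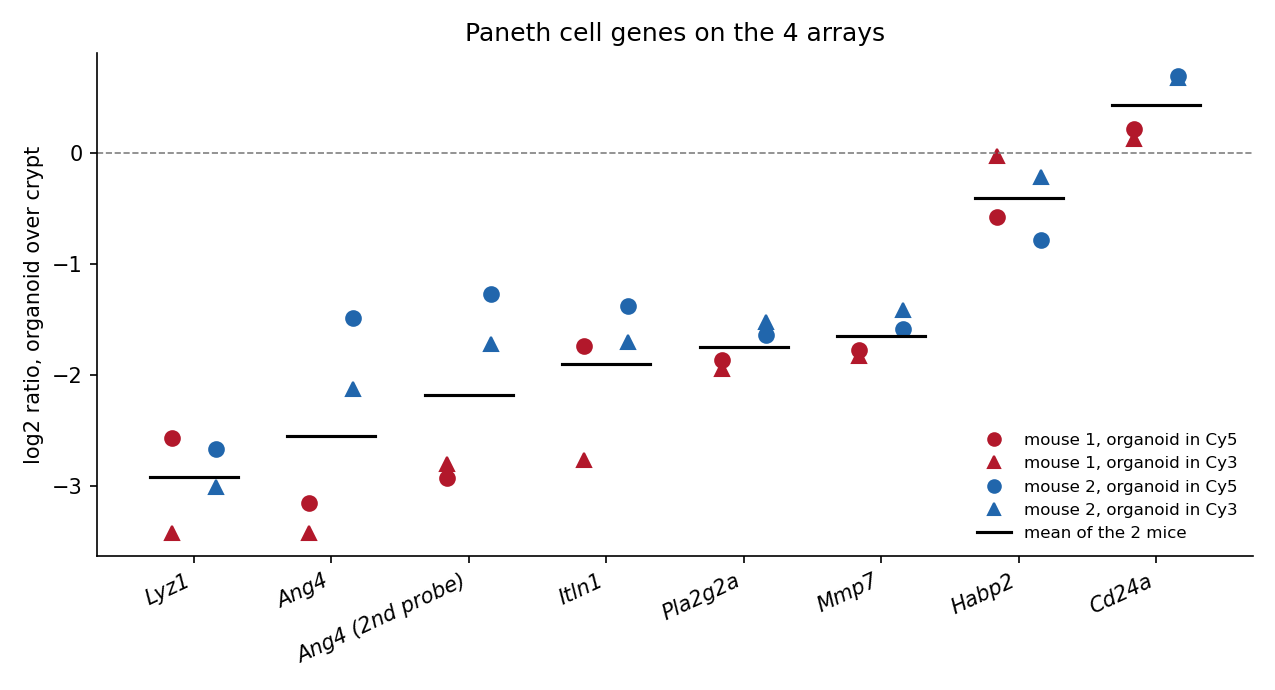
Log2 ratio of organoid over crypt for each Paneth cell gene probe on each of the 4 arrays; colours give the mouse, circles arrays with the organoid in Cy5, triangles arrays with the organoid in Cy3, and the bar the mean of 2 mice. Lyz1, both Ang4 probes, Itln1, Pla2g2a and Mmp7 lie below -1 on every array, while Cd24a lies above 0 on all 4.

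Lyz1 encodes the lysozyme of Paneth granules, an enzyme that cleaves the bacterial cell wall. Its ratio was -2.56 and -3.42 on the arrays of mouse 1 and -2.67 and -3.01 on those of mouse 2. The mean was -2.92 ± 0.11 (95% interval -3.25 to -2.58, limma adjusted p = 0.00142), and only 28 of the 15534 genes were lower. The mean normalised log2 level was 14.7 in the organoids of both mice, against 17.7 and 17.5 in their crypts, so the means of the mice lay close together. Single arrays ran from 14.1 to 15.4 in organoids and from 17.4 to 18.0 in crypts, so the tissues did not overlap. In both mice the array with the organoid in Cy3 gave the lower ratio, by 0.86 in mouse 1 and 0.34 in mouse 2. The probe lies at chr10:116725254-116725313 on the minus strand and starts at base 802 of the transcript. The array's annotation lists a transcript of the neighbouring gene Lyz2, the lysozyme of macrophages, for the same probe, so the 2 genes cannot be told apart by it.

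Lyz2 has 2 probes of its own, and they disagreed in size. The brighter gave -2.32 ± 0.18 (limma adjusted p = 0.00231), with -2.45 in mouse 1 and -2.19 in mouse 2. The dimmer gave -0.59 ± 0.20 and was well above background in 1 of 4 organoid channels. Neither shared a run of more than 6 bases with the Lyz1 probe. These probes lie at different places in their transcripts, so the short run does not show whether Lyz2 transcripts bind the Lyz1 probe. That was not tested. Of 3 genes tested among the C-type lysozyme family other than Lyz1, Lyz2 was the 1 that passed, while Lyzl4 had -0.08 ± 0.06 and Lalba, which encodes alpha-lactalbumin, 0.06 ± 0.17.

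Ang4 encodes angiogenin 4, a ribonuclease of Paneth granules that kills bacteria. Its brighter probe had ratios of -3.15 and -3.42 in mouse 1 and of -1.48 and -2.13 in mouse 2. All 4 arrays were well below 0, but the mice did not overlap: the transcript was 9.74-fold lower in the organoids of mouse 1 and 3.49-fold lower in those of mouse 2. The mean was -2.54 ± 1.05 (95% interval -3.43 to -1.66, limma adjusted p = 0.0149). The dimmer probe, the first sequence shown above, gave -2.18 ± 0.97, again lower in mouse 1 (-2.86) than in mouse 2 (-1.50).

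The difference between the mice lay in the organoids. The level of Ang4 was 11.7 in the organoids of mouse 1 and 13.0 in those of mouse 2, against 15.0 and 14.8 in the crypts of the same mice. By the brighter probe mouse 2 was 2.41-fold above mouse 1 in organoids, the 63rd largest such gap of 15534 genes, and 0.21 lower on the log2 scale in crypts. By the dimmer probe the gap was 1.11 in organoids and -0.26 in crypts. The typical gene differed between the mice by 0.17 in organoids and 0.13 in crypts (median absolute difference). With 1 sample of each tissue per mouse, no difference between mice can be tested.

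The other angiogenin genes had the same order of mice. Ang2 fell to -1.99 ± 0.73 (limma adjusted p = 0.0132), with -2.50 in mouse 1 and -1.47 in mouse 2. Ang6 fell to -1.81 ± 0.73 (limma adjusted p = 0.0165), with -2.32 and -1.29. Ang, which encodes angiogenin itself, had -0.98 ± 0.67 and did not pass (limma adjusted p = 0.0696), with -1.45 and -0.50. It passed with the mouse as a replicate block (limma adjusted p = 0.0231) and with 4 arrays and a dye effect (limma adjusted p = 0.0414). Here and below, the fit with a dye effect counts the technical repeats of a mouse as separate replicates. In organoids mouse 2 was above mouse 1 by 0.99 for Ang, 0.96 for Ang2 and 1.21 for Ang6 on the log2 scale, whereas in crypts the gaps were 0.04, -0.08 and 0.18. The Ang6 probe shares 18 bases with the dimmer Ang4 probe and 9 with the brighter one, and no other pair of these probes shares more than 8. How far transcripts of 1 gene bind another's probe was not tested. Ang6 lost its call with the scanner's own ratios, with median centring and without the filter on dim probes, and Ang2 without that filter.

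Elsewhere in the RNase A superfamily, Ang2 and Ang6 were the 2 of 7 tested genes that passed, and the list's median was -0.19. Rnase4 had 0.46 ± 0.46 and Rnase1 -0.19 ± 0.65. Rnh1, which encodes the cytosolic inhibitor of these ribonucleases, had -0.17 ± 0.21.

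**Figure D2:**
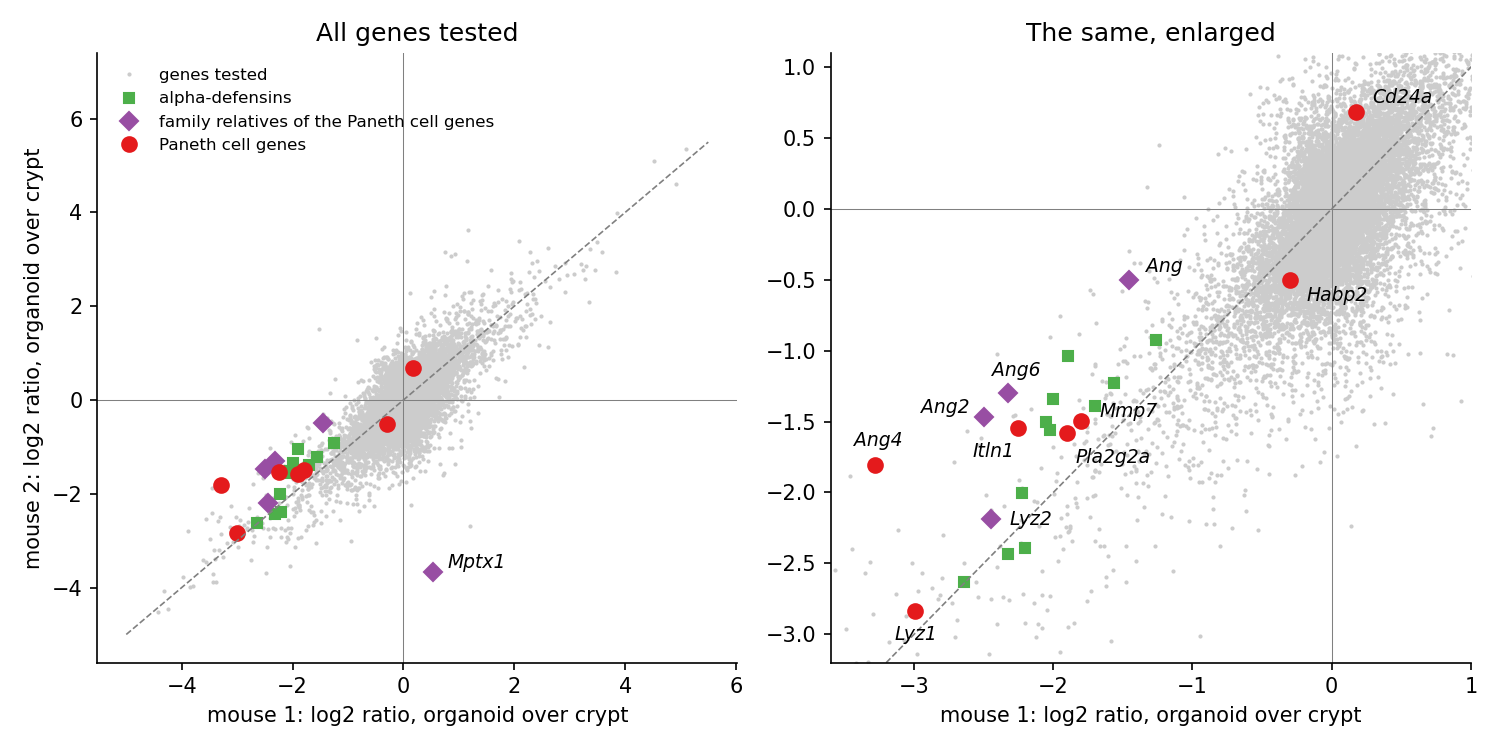
Log2 ratio of organoid over crypt in mouse 1 (horizontal) and mouse 2 (vertical) for the 15534 genes tested, with the Paneth cell genes, their family relatives and the alpha-defensins marked; the right panel enlarges the same data and the dashed line marks equal ratios. Lyz1 lies close to the line, Ang4 and its relatives lie above it, and Mptx1 stands alone at 0.54 in mouse 1 and -3.66 in mouse 2.

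Pla2g2a encodes a secreted phospholipase A2 that attacks bacterial membranes. It fell in the organoids of both mice by a like amount, with ratios of -1.86 and -1.95 in mouse 1 and of -1.64 and -1.53 in mouse 2. The mean was -1.74 ± 0.23, or 3.35-fold lower (95% interval -2.11 to -1.37, limma adjusted p = 0.00440).

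The level itself separated the mice far more than the tissues. In mouse 1 the mean spot signal was 28021 and 10792 in organoids on the 2 arrays, against 42790 and 103245 in crypts. In mouse 2 it was 591 and 292 in organoids, against 1190 and 1794 in crypts. All 8 channels were well above background, and every value of mouse 1 exceeded every value of mouse 2. After normalisation, mouse 2 was 39.2-fold below mouse 1 in organoids and 49.0-fold below it in crypts. Both gaps were the largest of any of the 15534 genes in that tissue. RefSeq's table for GRCm38.p6, the assembly of strain C57BL/6J, lists Pla2g2a as a transcribed pseudogene, and that strain is known to carry a disrupted copy. The labels do not name the strain of either mouse, and the genotype was not tested.

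Few genes shared that pattern. Over all genes tested, 4 were at least 4-fold apart between the mice in both tissues in the same direction, and all 4 were lower in mouse 2; they were chosen after their values were seen. Besides Pla2g2a these were ENSMUST00000043170, Pi4k2b, which encodes a phosphatidylinositol kinase, and BC057602. ENSMUST00000043170 was 14.2-fold lower in the organoids and 32.7-fold lower in the crypts of mouse 2 than in the same tissue of mouse 1. Its probe lies 13.7 kb from the Itln1 probe and shares the 11-base run shown above, and the files give it no gene name. Its ratio was -1.35 ± 0.85 (limma adjusted p = 0.0483), a call lost in 5 of 10 alternative settings. For Pi4k2b the difference (mouse 2 minus mouse 1, log2) was -2.14 in organoids and -2.52 in crypts, and the organoid-over-crypt ratio was -0.12.

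Of 7 other secreted phospholipase A2 genes tested, 1 passed, Pla2g12b at -0.90 ± 0.12 (limma adjusted p = 0.0181). With the mouse as a replicate block 4 of the 7 passed, and with 4 arrays and a dye effect 6 did (3 higher and 3 lower). Pla2g12b was the 1 gene called as reported. It did not pass with the scanner's own ratios or with median centring. The median of these genes was -0.01, with Pla2g10 at -0.56 ± 0.29 and Pla2g5 at 0.61 ± 0.25.

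**Figure D3:**
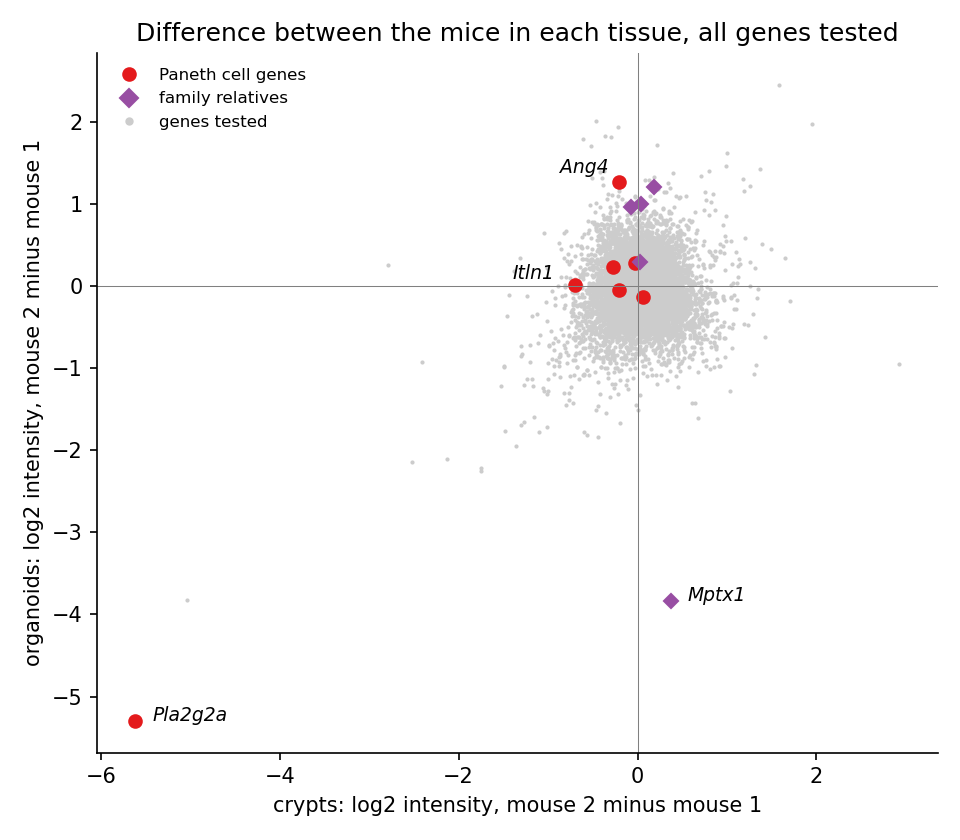
Difference between the mice (mouse 2 minus mouse 1, log2 of normalised intensity) in organoids (vertical) and in crypts (horizontal) for all genes tested. Pla2g2a is at -5.29 in organoids and -5.61 in crypts, Mptx1 is at -3.83 in organoids and 0.37 in crypts, and Ang4 is at 1.27 in organoids and -0.21 in crypts.

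Itln1 encodes intelectin 1, a lectin that binds sugars on microbial surfaces and is made by Paneth and goblet cells. Its ratio was -1.74 and -2.76 in mouse 1 and -1.38 and -1.70 in mouse 2. Every array was below -1, and the lowest value came from mouse 1 with the organoid in Cy3. The mean was -1.90 ± 0.50, or 3.72-fold lower in organoids (95% interval -2.41 to -1.38, limma adjusted p = 0.00780). Organoid levels were 14.9 and 15.0 in mice 1 and 2, against 17.2 and 16.5 in their crypts. For this gene the mean levels of the mice differed in the crypts, by 1.63-fold, and hardly in the organoids. Single arrays gave crypt levels of 17.4 and 17.0 in mouse 1 and 16.6 and 16.4 in mouse 2. In organoids they gave 15.7 and 14.2 in mouse 1 and 15.2 and 14.7 in mouse 2. The near-equal organoid means thus rest on arrays that lay far apart. The array with the organoid in Cy3 gave the lower ratio by 1.02 in mouse 1 and by 0.32 in mouse 2, and the mean of a mouse's 2 arrays cancels such a dye difference.

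Mptx2 encodes a mucosal pentraxin of Paneth cells, and its nearest measured relative was Mptx1. The Mptx1 ratio was 0.71 and 0.37 in mouse 1 and -3.47 and -3.86 in mouse 2. The mice pointed in opposite directions on all arrays, and the gap between their ratios was the largest of all genes tested. The mean of -1.56 ± 2.97 did not pass (limma adjusted p = 0.354). Its level was 15.4 in the organoids of mouse 1 and 11.5 in those of mouse 2, a 14.3-fold gap that was second only to Pla2g2a, against 14.8 and 15.2 in the crypts. Ptx3, the other pentraxin gene tested, had 0.11 ± 0.16.

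Mmp7 encodes matrilysin, the metalloproteinase that in mice cuts the alpha-defensin precursors into their active forms. Its ratio was -1.77 and -1.83 in mouse 1 and -1.58 and -1.41 in mouse 2. The 4 arrays lay within a narrow range and none approached 0. The mean was -1.65 ± 0.21, or 3.14-fold lower (95% interval -2.02 to -1.28, limma adjusted p = 0.00474). Levels were 12.2 and 12.4 in organoids, against 14.0 and 13.9 in crypts. With median centring its mean was -1.33 and it did not pass (limma adjusted p = 0.114).

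None of the other metalloproteinase genes tested fell, where 5.49% of all genes did, so 0 among so few is near that share. Of 23 genes on the array for the other matrix metalloproteinases and their tissue inhibitors, 10 were tested. In no channel were 8 of the 23 well above background. Of the 10 tested, 2 rose and 0 fell by limma, against 5.47% and 5.49% of all genes. At an unadjusted p under 0.05, 0 were lower too, and the median was 0.19. Both that rose encode inhibitors: Timp2 had 0.90 ± 0.48 (limma adjusted p = 0.0496) and Timp3 0.69 ± 0.20 (limma adjusted p = 0.0425). Neither passed with median centring, without the filter on dim probes or with the organoid in Cy3 alone. The 11 alpha-defensin genes tested, whose precursors Mmp7 cuts, all fell, with ratios from -2.64 to -1.09 and a median of -1.78. With median centring 2 of the 11 passed (median -1.24), and without the filter on dim probes 8 of 12; their sequences are so alike that probes of 1 gene can read another.

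Cd24a encodes a small surface glycoprotein that is used to sort Paneth cells. It was the 1 member whose ratio was above 0 on every array, at 0.22 and 0.13 in mouse 1 and 0.69 and 0.68 in mouse 2. The mean was 0.43 ± 0.36 and did not pass (95% interval -0.0028 to 0.86, limma adjusted p = 0.183). Levels were 13.7 and 14.0 in organoids, against 13.6 and 13.3 in crypts. The interval leaves room for a rise of up to 1.82-fold and for no change. The probe lies at chr10:43303706-43303765.

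Habp2 encodes a secreted serine protease that binds hyaluronan. Its spots were dim, with mean signals of 140 to 253 in organoids and 187 to 331 in crypts, and 3 of the 4 organoid channels were well above background. The ratio was -0.57 and -0.03 in mouse 1 and -0.79 and -0.22 in mouse 2. The arrays with the organoid in Cy5 were the lower ones in both mice. The mean was -0.40 ± 0.14 (95% interval -0.75 to -0.06) and did not pass, with a limma adjusted p of 0.134. It was -1.11 with the scanner's own ratios (limma adjusted p = 0.0417) and -1.12 in the deposited value table (limma adjusted p = 0.0419), and -0.29 with no background subtraction (limma adjusted p = 0.185). The probe lies at chr19:56389790-56389849.

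**Figure D4:**
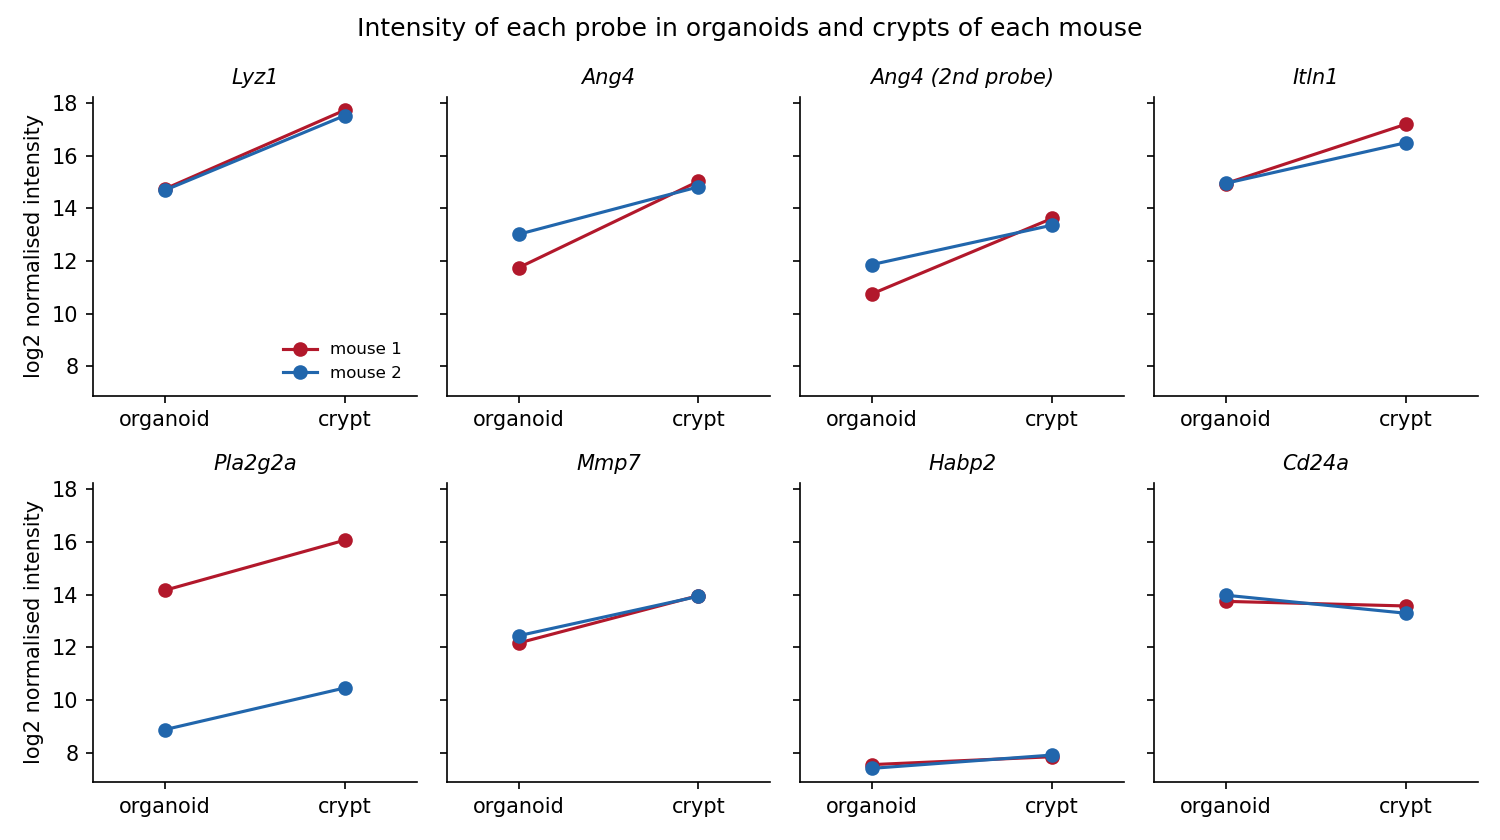
Log2 normalised intensity of each Paneth cell gene probe in organoids (left) and crypts (right), with a line for each mouse, each point the mean of 2 arrays. Organoids lie below crypts in both mice for every probe shown except Cd24a, and the Pla2g2a lines of the mice run parallel, far apart; heights are not comparable between probes.

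Ordered by ratio, the genes ran Lyz1, Ang4, Itln1, Pla2g2a, Mmp7, Habp2 and Cd24a. The 95% intervals of Lyz1 and Ang4 overlapped, as did those of Ang4 with Itln1 and of Itln1, Pla2g2a and Mmp7 with each other. No test was made of the differences between these genes, which were read on the same arrays. Ang4 lay below Itln1 and Pla2g2a below Mmp7 in both mice, whereas Lyz1 with Ang4 and Itln1 with Pla2g2a changed places between the mice. The interval of Lyz1 lay below those of Itln1, Pla2g2a and Mmp7. The interval of Mmp7 lay below that of Habp2, and Habp2's lay just below that of Cd24a. Habp2 was read from dim spots, and with the scanner's own ratios its mean was -1.11, against -1.67 for Mmp7.

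The genes nearest to each member were sought among non-members, by Euclidean distance over the 4 array ratios on the log2 scale. Another member may lie nearer than the genes named here. Nearest to Lyz1 were the goblet cell gene Clca1 (distance 0.540), the keratin gene Krt20 and the lectin gene Reg3g. Ang4 lay nearest to Ada, which encodes adenosine deaminase (distance 0.709), then to Dnase1 and Fabp2. Ada had -2.67 ± 1.11. Nearest to Mmp7 and to Pla2g2a was the brush border protease gene Mep1b (distances 0.123 and 0.209), and Itln1 lay nearest to the alpha-defensin gene Defa20 (distance 0.521), then to Clec2h and Defa1. Gpx1 and Fcgbp followed for Mmp7, and Glod5 and Crip1 for Pla2g2a. For Cd24a the nearest were TC1665419, Eif2a and C1rl, and for Habp2 they were Ddost, Vps52 and Smpd2, all of which had not passed. The likeness rests on 4 arrays of 2 mice and on the direction and size of the ratio alone.

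Of 17 tested genes that specify Paneth cells or serve their secretory machinery, 1 rose, 2 fell and 14 did not pass, with a median of -0.13. Over all genes 5.47% rose and 5.49% fell. With the mouse as a replicate block 5 of the 17 passed. The receptor gene Ephb3, which holds Paneth cells at the crypt base, rose by 0.92 ± 0.01 (limma adjusted p = 0.0153). The potassium channel gene Kcnn4 had -0.68 ± 0.07 (limma adjusted p = 0.0342), and Agr2, whose disulfide isomerase folds secreted proteins and which is also a goblet cell marker, had -1.62 ± 0.03 (limma adjusted p = 0.00392). None of these 3 passed with median centring, and Kcnn4 also lost its call in 4 other settings.

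The 5 transcription factor genes of the lineage that were looked at did not pass, where 11.0% of all genes did. Sox9, which Paneth cells need to form, had 0.79 ± 0.38 (limma adjusted p = 0.0508) and passed in 3 of 10 alternative settings, the replicate block among them. Atoh1, the gene for the factor that commits cells to secretory fates, had -0.41 ± 0.20, and Gfi1, which acts after it, -0.49 ± 0.29. Gfi1 passed with the replicate block (limma adjusted p = 0.0357) and with 4 arrays and a dye effect (limma adjusted p = 0.0440). Spdef, which acts in goblet and Paneth cell maturation, had -0.34 ± 0.13, and Xbp1, which expands the secretory apparatus, -0.13 ± 0.30. Of the 7 ligand genes by which Paneth cells support stem cells, 0 passed, where 11.0% of all genes did. So 0 of 7 is near the share over all genes. Wnt3 had -0.29 ± 0.23, Egf -0.04 ± 0.12 and the Notch ligand gene Dll4 -0.55 ± 0.12 (limma adjusted p = 0.0635). Of these ligands, 1 (Dll4) had an unadjusted p under 0.05, and Dll4 passed with the organoid in Cy5 alone and with 4 arrays and a dye effect.

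The list of other Paneth granule products was drawn loosely. It holds Lyz2, also counted as a white blood cell marker, and Nupr1, whose protein is nuclear. Of its 12 tested genes, 6 fell, 1 rose and 5 did not pass, with a median of -1.58. The antimicrobial lectin genes Reg3b (-4.36 ± 0.15) and Reg3g (-2.83 ± 0.20) were the lowest. Guca2b, which encodes uroguanylin, had -1.59 ± 0.27, and Lyz2, Ang2 and Ang6 were the others that fell. With median centring 4 fell, and Guca2b was not among them (limma adjusted p = 0.145). Nupr1, which encodes a stress-induced nuclear protein, rose by 0.99 ± 0.42 (limma adjusted p = 0.0316). It lost that call in 4 alternative settings.

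Markers of other cells moved beside the Paneth cell genes. Of 8 goblet cell markers tested, 6 fell (median -1.64). The lowest were Zg16 (-3.50 ± 0.07), Clca1 (-3.07 ± 0.31) and Ccl6 (-2.25 ± 0.66), and Muc2 had -1.25 ± 0.63. Tff3 had -0.48 ± 0.02 and did not pass (limma adjusted p = 0.0817, and 0.0144 with the replicate block). The summed log2 level of the 8 was 16.7 and 16.9 in organoids, against 18.7 and 18.6 in crypts. Of 10 enterocyte markers, 9 fell (median -2.07, summed level 17.8 and 17.7 in organoids, against 19.6 and 19.4 in crypts), with Lct at -4.47 ± 0.06. With median centring 3 of the goblet cell and 5 of the enterocyte markers fell. Of 9 stem cell markers, Lgr5 (2.29 ± 0.05) and Smoc2 (0.95 ± 0.17) rose, 7 did not pass, and Olfm4 had -0.09 ± 0.21. With the replicate block 4 of the 9 rose and 1 fell. The summed level of stem cell markers was 15.5 and 15.6 in organoids, against 15.2 and 15.3 in crypts. Among 6 epithelial markers 3 fell and 1 rose, and Epcam had -0.59 ± 0.05 (limma adjusted p = 0.0503; 0.00825 with the replicate block). With median centring 1 of the 6 rose and 0 fell, and without the filter on dim probes 0 passed. None of 6 tuft cell markers passed, where 11.0% of all genes did, so 0 of 6 is near that share. None of them had an unadjusted p under 0.05, and their median was 0.12.

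Of 13 white blood cell markers tested, 5 fell (Lyz2, Gzma, Gzmb, Itgae and Cd3g) and 8 did not pass. Gzma had -2.80 ± 0.15, with 1 of 4 organoid channels well above background. Gzmb had -1.90 ± 0.20, with 3 of 4, and Itgae -0.89 ± 0.08, with all 4. Cd3g was at least 2.00-fold lower in organoids, where no channel was well above background, with measured levels of 7.31 in organoids and 8.35 in crypts (limma adjusted p = 0.0116). The defining marker Ptprc was well above background in 1 of 4 organoid channels and in all 4 crypt channels, at -0.70 ± 0.33 (limma adjusted p = 0.0597). The summed level of the 13 was 13.8 and 14.1 in organoids, against 16.1 and 16.1 in crypts. Most of that sum was Lyz2, whose transcript is listed for the Lyz1 probe too, and the other 12 summed to 11.5 and 11.6 in organoids, against 12.3 and 12.4 in crypts. Of 11 stromal and vessel markers, 6 were not well above background in any channel, Col1a1 was in 1 organoid and 2 crypt channels, and Acta2 was the 1 of 3 tested that fell. With the organoid in Cy3 alone 2 of the 13 white blood cell markers fell, and with median centring 3. The size of the fall also depended on the setting. The median of the 13 was -0.56 as reported and -0.44 with no background subtraction, where 5 fell. It was -1.84 with the scanner's own ratios, where 6 fell, and -1.87 with the authors' deposited ratios, where again 6 fell. Ptprc had -2.02 with the scanner's own ratios and did not pass (limma adjusted p = 0.108). Acta2 did not pass in 6 of 10 alternative settings, Muc2 in 5, and Smoc2 with median centring or without the filter on dim probes. The part of these shifts in the Paneth cell gene ratios was not tested.

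**Figure D5:**
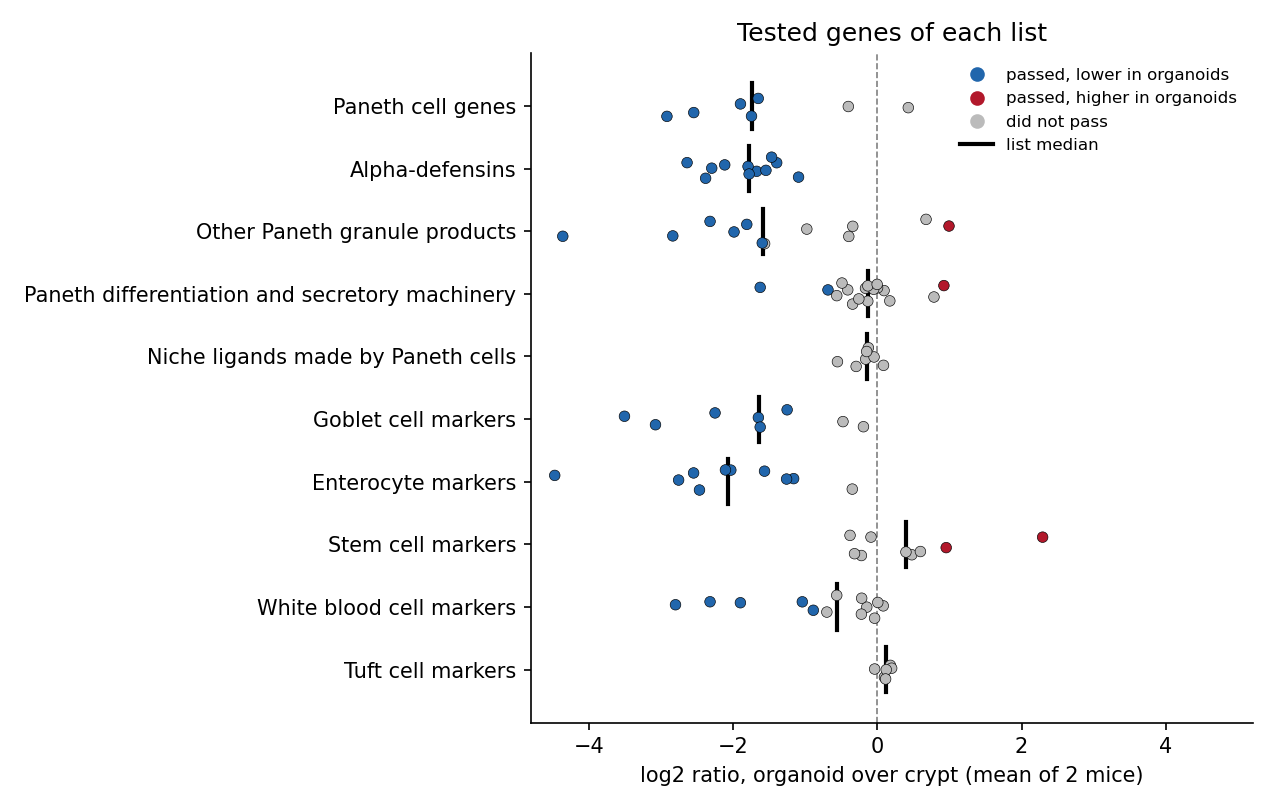
Log2 ratio of organoid over crypt (mean of 2 mice) for each tested gene of the Paneth cell genes and of lists of related genes and cell type markers; colours give genes that passed lower, passed higher or did not pass, and black bars the list medians. The medians of the Paneth cell genes (-1.74), the alpha-defensins (-1.78), goblet (-1.64) and enterocyte markers (-2.07) lie to the left of 0. Those of the Paneth cell regulators and secretory machinery (-0.13) and ligands (-0.15) lie nearer to 0, with 12 of 17 and 6 of 7 genes below it.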

How the data were processed

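Organoid and crypt RNA of 2 mice was measured on 4 two-colour Agilent arrays. Each deposited intensity is a linear spot signal (mean) or its local background (median) in 1 dye, read with Agilent Feature Extraction 10.2.1.3 per the file headers (the submitters' processing notes name 9.5.3). Per the file headers, the scanner software also wrote a log10 ratio (Cy5 over Cy3), which the authors deposited. The authors' deposited value table held log2 ratios, as set against the scanner ratios (r from 0.978 to 0.991), with each column's median at 0. Its centring method was not given in the sources used here. For RNA isolation, the labels name Trizol and the design text an RNeasy kit.

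With limma 3.58.1 in R 4.3.3, normexp (offset 50) corrected the background and arrays were normalised by loess, in which controls had weight 0. Outlier-marked spots were left out. By the dye labels each ratio was turned to organoid over crypt, and a mouse's 2 dye-swapped arrays were averaged. A probe was tested if it had no outlier mark and all 4 organoid or all 4 crypt channels were well above background, and the brightest probe stood for its gene (15534 genes). Mouse means were tested against 0 (two-sided) with lmFit and eBayes, which added 4.20 prior degrees of freedom to 1 residual degree. Levels were computed after Aquantile normalisation between arrays. A summed level is the log2 of the linear sum over a list's tested genes. No Paneth cell gene was saturated. Where a tissue had no channel well above background, the bound of a fold sets that tissue's value at no less than the lowest signal well above background.

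Genes were named by accession through RefSeq's GRCm38.p6 table (24844 of 41174 probes), otherwise by the file. Named were all members, their family relatives and up to 5 genes passing per list (otherwise the 3 highest and 3 lowest). For the cell type markers and the alpha-defensins this rule was not followed throughout, and only some of the genes passing were named. Fixed regulators and markers were named too, as were the 3 nearest non-member genes of each member. Lalba, Lyzl4, Rnase1, Rnase4, Ptx3, Pla2g5, Pla2g10, Rnh1, Tff3 and the genes that differed between mice were added after their values were seen. The members and lists were chosen with earlier results of these data known. The replicate number names the mouse, so same-numbered arrays are paired by origin. The fit was tested on simulated data.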

Additional observations from a re-analysis of the deposited data

How the results depend on the processing

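Of the 12 alternatives run, none turned the sign of any of the 7 Paneth cell genes. The 5 genes that passed as reported were at least 2-fold lower in both mice under the 10 alternatives that hold both. In each run on 1 mouse alone they were at least 2-fold lower in that mouse. Several alternatives could not turn a sign. The dye effect, the replicate block and the removal of the dim-probe filter keep the ratios as reported. The mean over probes could move only Ang4, and the runs on 1 mouse repeat the mouse values given above. The count of Paneth cell genes past the threshold, 5 as reported, became 2 with median centring (Lyz1 and Ang4; Itln1 adjusted p = 0.0832, Mmp7 0.114, Pla2g2a 0.0988, limma) and 3 without the dim-probe filter. Over all genes, 1703 passed as reported. Fewer did with median centring (230, of which 134 were higher and 96 lower), on arrays with organoid RNA in Cy3 (906) and with dim probes kept (677). More did when a dye effect was fitted to the 4 arrays (3709) and when the mouse was a replicate block (3081). The dye-effect fit counts the 2 arrays of a mouse as separate replicates, although they are technical repeats. Its larger count is therefore not a count over mice. Median centring moved the median of all genes to 0.17, against 0.02 as reported. Habp2 passed in 4 of 10 tested alternatives and Lyz1 in 10 of 10. In 1 mouse alone the ratios were -3.28 and -1.80 for Ang4, -2.25 and -1.54 for Itln1, and 0.17 and 0.69 for Cd24a. The cause of these changes was not tested. The planned block with a dye term could not be fitted, so the block has no dye term (chosen after seeing the data); it changed no call of a Paneth cell gene. The slide as a block was not run, since the files give 1 scan for all 4 arrays.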
